A study of Homo sapiens with 6 samples.

Results

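Hypoxia response genes and genes of glycolysis were followed as a set of 42 genes in Hs578T cells after CCN3 knockdown. The 42 genes were picked by name from the 46427 genes in the count table, with earlier results of these data known. They are 27 genes of glucose uptake, glycolysis, lactate export and pyruvate fate, and 15 genes of oxygen sensing and of the response to low oxygen. The Hs578T line comes from triple-negative breast cancer and is of mesenchymal character, and CCN3 is a secreted matricellular protein. RNA-seq was performed on 3 samples with stable control shRNA (shCTRL) and 3 with stable CCN3 shRNA #2 (shCCN3), described as independent biological replicates. Both lines were made by retroviral transduction of a pSUPER vector and puromycin selection, and both were kept in DMEM with 10% fetal bovine serum. A single shRNA was sequenced, so an effect of its target cannot be told apart from an effect particular to that shRNA or that line. The study's methods call the selected cells clones and do not say how many made up a line. The time of harvest and the oxygen level of the cultures are not given in the sources used here, and no low-oxygen treatment is named.

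Glycolysis splits glucose into pyruvate. Tumor cells often reduce much of that pyruvate to lactate and export it, even when oxygen is present. Cells sense oxygen through the prolyl hydroxylases encoded by the EGLN genes, which mark the alpha subunits of hypoxia-inducible factor (HIF) for destruction while oxygen is available. When oxygen falls, HIF persists and binds to short DNA elements with the core ACGTG or GCGTG near many glycolytic genes and near genes of angiogenesis, pH control and mitophagy.

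For a view of such elements, the 250 bases before the gene start are shown for the 2 members with the largest rise and the 2 with the largest fall, among called members with a single start in the RefSeq promoter table (GRCh38.p14). Each sequence runs 5′ to 3′ on the strand of its gene. Capitals mark matches to ACGTG or GCGTG on either strand, so that CACGT and CACGC are the same cores read on the other strand. The windows are DDIT4 at chr10:72273674-72273923 (plus strand), ANKRD37 at chr4:185396591-185396840 (plus strand), EGLN3 at chr14:33951075-33951324 (minus strand) and CA12 at chr15:63381847-63382096 (minus strand).
DDIT4: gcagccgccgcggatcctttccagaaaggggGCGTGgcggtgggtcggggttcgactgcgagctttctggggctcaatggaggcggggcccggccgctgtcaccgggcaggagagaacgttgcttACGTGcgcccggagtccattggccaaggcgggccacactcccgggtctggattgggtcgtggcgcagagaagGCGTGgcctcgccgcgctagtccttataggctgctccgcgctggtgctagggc
ANKRD37: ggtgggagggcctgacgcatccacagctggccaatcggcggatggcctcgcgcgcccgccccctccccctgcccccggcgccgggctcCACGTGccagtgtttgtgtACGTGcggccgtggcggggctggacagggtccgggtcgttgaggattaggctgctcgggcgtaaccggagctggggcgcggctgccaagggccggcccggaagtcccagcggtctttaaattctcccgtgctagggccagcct
EGLN3: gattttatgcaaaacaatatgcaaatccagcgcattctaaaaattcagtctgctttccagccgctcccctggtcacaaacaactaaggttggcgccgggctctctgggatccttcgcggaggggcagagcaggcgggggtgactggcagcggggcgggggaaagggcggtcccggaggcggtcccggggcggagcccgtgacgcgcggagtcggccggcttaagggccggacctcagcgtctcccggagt
CA12: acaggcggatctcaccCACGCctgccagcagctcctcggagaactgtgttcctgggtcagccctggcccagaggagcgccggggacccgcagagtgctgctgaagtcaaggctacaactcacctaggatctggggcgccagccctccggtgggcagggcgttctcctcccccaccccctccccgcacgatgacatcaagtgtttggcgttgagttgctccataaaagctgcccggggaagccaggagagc
DDIT4 and ANKRD37, which were higher in shCCN3 cells, held 3 matches each, where a CACGTG counts as 2 overlapping matches. CA12 held 1 match and EGLN3 held none, and both were lower in shCCN3 cells. Of the 23 members with a single start, 17 held either core (73.9%), against 56.7% of the 9156 tested genes with a single start. Among them were 8 of 9 members that rose, 5 of 6 that fell and 4 of 8 that did not pass the test. A match is a stretch of letters and not a measured binding site.

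The libraries held 56159110 to 68393177 counts, in which 3 counts equal 0.0439 to 0.0534 CPM before TMM factors. The CPM of genes are a gene's share of the library's counts, with TMM factors. CCN3 mRNA checked the labels, with 98.1 to 103 CPM in shCTRL cells and 46.5 to 47.4 CPM in shCCN3 cells. Of the hormone receptors and ERBB2, ESR1 was at 0.156 CPM or below in every library, PGR at 2.66 to 4.56 CPM and ERBB2 at 72.0 to 82.8 CPM, and none was called. The sum of 5 mesenchymal markers was 13090 to 13210 CPM in shCTRL cells and 12310 to 12510 CPM in shCCN3 cells. Within it CD44 fell (log2 fold change -0.25, adjusted p = 0.00428), and vimentin (VIM) was at 7660 to 7990 CPM against 6617 to 7565 CPM and was not called (adjusted p = 0.0961). EPCAM and CDH1 were at 0.141 CPM or below. The luminal keratin KRT18 was higher and KRT8 lower in shCCN3 cells, and the sum of 5 luminal markers was 173.8 to 192 CPM against 226 to 278 CPM. The sum of 4 leukocyte markers was 95.6 to 108 CPM against 58.4 to 60.2 CPM and was almost all CD68, with PTPRC at 0.203 CPM or below and CD3E at 0 in every library. The sum of 3 endothelial markers was 3.11 to 4.46 CPM against 3.22 to 3.72 CPM and was mostly PECAM1, with CDH5 at 0 in every library, and the sum of 2 adipocyte markers stayed at 0.180 CPM or below. The part of these markers in the results was not tested. In bulk RNA, fewer cells that express a gene and less RNA per cell cannot be told apart.

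The library of shCCN3 replicate 2 stood apart from its group. It was the shallowest, and its counts differed from those of the other shCCN3 libraries with a chi-square per degree of freedom of 37.1 and 45.2, against 9.82 between those libraries and 7.02 to 22.1 within shCTRL. Among the 41 tested members it was the highest shCCN3 library in 19 and the lowest in 17, together 87.8%, against 81.5% of all genes tested (6894 highest and 7297 lowest). Among the 15 members of upper and lower glycolysis it was the highest in 11 and the lowest in 2. Values without it are given beside the members whose call it changed and for GAPDH, HIF1A and EPAS1. Without it, the log2 fold changes of other uncalled members (HK2, PFKFB2, LDHB, PKM and ALDOC) shifted by a factor of more than 1.5, and the genes stayed uncalled. That of HK2 shrank from -0.21 to -0.14. Those of PFKFB2 (0.25 to 0.39), LDHB (-0.04 to -0.11) and PKM (-0.02 to -0.06) grew in size. That of ALDOC also shrank, from 0.15 to 0.0052.

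CCN3 knockdown moved genes of the set in both directions. The quasi-likelihood test of edgeR was run on 17419 genes, p-values were adjusted over all of them by Benjamini-Hochberg, and a gene was called at an adjusted p under 0.05. Of the 42 members, 41 passed the filter on low counts. Of these, 13 rose, 11 fell and 17 were not called, so 58.5% were called against 33.4% of all genes tested. Over all genes tested, 16.2% rose and 17.3% fell. The median log2 fold change (shCCN3 over shCTRL) was 0.01 for the members and 0.01 for all genes. Past a change of 1.5-fold there were 8 members, against 15.7% of all genes. The genes DDIT4, KDM3A and ANKRD37 were higher (7.89% of all genes), and EGLN3, CA12, GPI, CA9 and SLC16A3 were lower (7.85% of all genes). The shCTRL and shCCN3 libraries did not overlap in 27 of the 41 members, against 46.3% of all genes.

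**Figure D1:**
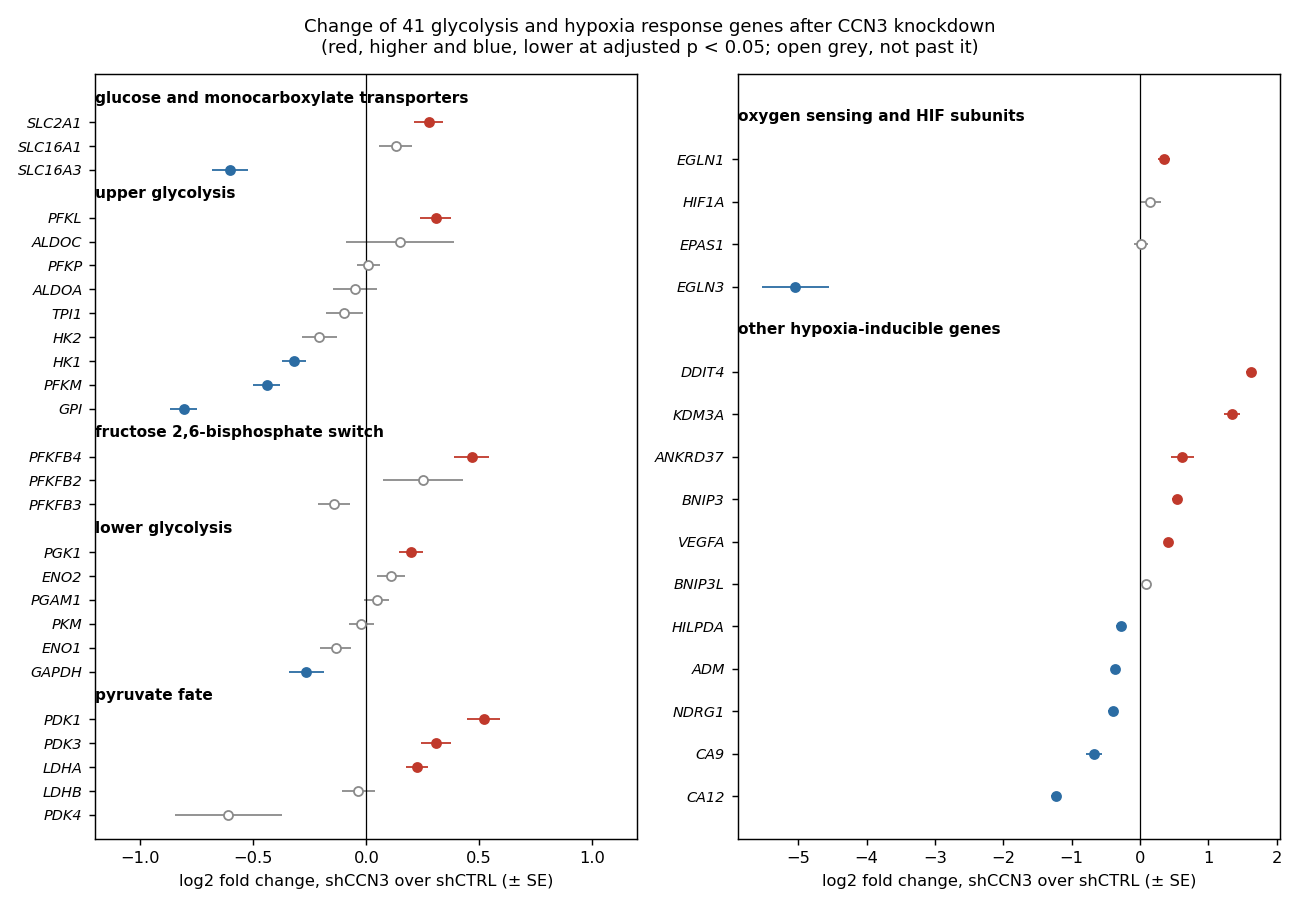
Log2 fold change (shCCN3 over shCTRL, horizontal axis) of the 41 tested members by role, with bars for the standard error and different scales on the left and right panels. Filled red points are members that rose, filled blue points members that fell, and open points members that were not called. The glycolytic members on the left lie between -0.81 and 0.52, and EGLN3 on the right lies at -5.04.

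The 27 genes of glucose use and the 15 genes of the oxygen response differed in how many moved and by how much. Among the 26 tested genes of glucose use, 7 rose, 5 fell and 14 were not called, with 2 past 1.5-fold. Among the 15 genes of the oxygen response, 6 rose, 6 fell and 3 were not called, with 3 higher and 3 lower past 1.5-fold. Called were 46.2% of the genes of glucose use and 80.0% of the oxygen response, against 33.4% of all genes tested. Past 1.5-fold were 7.69% and 40.0%, against 15.7% of all genes tested. The difference between the subsets was not tested.

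Of the transporters, the proton-coupled lactate exporter SLC16A3 (MCT4) fell. SLC16A3 (NCBI Gene ID 9123) lies at chr17:82217934-82240086. Its level was 79.3, 83.0 and 91.7 CPM in shCTRL cells and 52.4, 60.6 and 54.4 CPM in shCCN3 cells. All 3 shCCN3 libraries were below all 3 shCTRL libraries. The log2 fold change was -0.60 (SE 0.079, edgeR adjusted p = 0.000405), or 1.52-fold lower. It stayed called with each library left out, but was below 1.5-fold without shCTRL replicate 3 (-0.54), shCCN3 replicate 1 (-0.56) or shCCN3 replicate 3 (-0.58). It overlaps CSNK1D on the opposite strand, which was expressed at 172 CPM and changed in log2 by -0.11 (adjusted p = 0.176). The basal glucose transporter SLC2A1 (GLUT1) moved the other way, from 81.5 ± 0.980 to 98.7 ± 6.74 CPM (SD, n = 3), a log2 fold change of 0.28 (edgeR adjusted p = 0.00981). Without shCCN3 replicate 1 its log2 fold change was 0.23 (adjusted p = 0.0502). Around it on chromosome 1, the median of the 24 nearest tested genes was -0.34 (log2 fold change). The lactate and pyruvate transporter SLC16A1 (MCT1) was at 0.13 in log2 fold change (adjusted p = 0.218). SLC2A3 (GLUT3) was near the floor with 4 to 10 counts per library and was not tested.

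In upper glycolysis, from glucose to triose phosphate, GPI showed the largest change. GPI, the isomerase that turns glucose 6-phosphate into fructose 6-phosphate, has the NCBI Gene ID 2821 and lies at chr19:34359718-34402413. Its level was 449.5, 456 and 482 CPM in shCTRL cells and 258, 278 and 257 CPM in shCCN3 cells. The groups were far apart and no library fell between them. GPI was thus 1.75-fold lower, a log2 fold change of -0.81 (SE 0.060, edgeR adjusted p = 1.16e-05). The 24 nearest tested genes had a median of -0.14.

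The first step of the pathway also fell in part. HK1, the broadly expressed hexokinase, fell from 350.5 ± 9.79 to 281 ± 1.45 CPM (SD, n = 3; log2 fold change -0.32, edgeR adjusted p = 0.00146). HK2, the inducible hexokinase, was lower in every shCCN3 library but was not called (log2 fold change -0.21, adjusted p = 0.0712). The phosphofructokinase genes, which encode the committed step, diverged. PFKM, the muscle-type subunit, fell from 70.5 ± 2.91 to 51.9 ± 1.48 CPM (log2 fold change -0.44, adjusted p = 0.000508). PFKL, the liver-type subunit, rose from 179 ± 10.3 to 221 ± 13.9 CPM (log2 fold change 0.31, adjusted p = 0.00790). PFKL lies on chromosome 21, where the median of all tested genes was 0.23 and that of its 24 nearest genes was 0.37. PFKP, the platelet-type subunit and the phosphofructokinase gene with the highest CPM per kb of transcript, stayed at 441 ± 10.7 and 444 ± 4.22 CPM (log2 fold change 0.01, SE 0.052, adjusted p = 0.912). ALDOA and ALDOC, which encode aldolases, and TPI1, the triose phosphate isomerase, had log2 fold changes of -0.05, 0.15 and -0.10 and were not called. Without shCCN3 replicate 2, ALDOA (-0.18, adjusted p = 0.0284) and TPI1 (-0.18, adjusted p = 0.0291) passed the test.

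The PFKFB enzymes set the level of fructose 2,6-bisphosphate, which activates phosphofructokinase. PFKFB4 rose from 46.3 ± 2.96 to 64.0 ± 4.70 CPM (log2 fold change 0.47, edgeR adjusted p = 0.00146). It overlaps UCN2 on the same strand, which was at 16.5 CPM, with a log2 fold change of 0.40 (adjusted p = 0.0102). PFKFB3 (log2 fold change -0.14, adjusted p = 0.151) and PFKFB2 (0.25, adjusted p = 0.321) were not called.

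Lower glycolysis, from triose phosphate to pyruvate, held the most abundant transcripts of the set and small changes. Per kb of transcript, shCTRL cells had 4249 CPM of GAPDH, 3097 of ENO1 and 1279 of PKM. GAPDH, the dehydrogenase of glyceraldehyde 3-phosphate and the reference gene of RT-qPCR in the study, was at 5116, 5365 and 5825 CPM in shCTRL cells. In shCCN3 cells it was at 4337, 5050 and 4183 CPM. The groups did not overlap, but shCCN3 replicate 2 came close to the lowest shCTRL library. The log2 fold change was -0.26 (SE 0.079, edgeR adjusted p = 0.0295). The call was lost without shCTRL replicate 2 (adjusted p = 0.0849), shCTRL replicate 3 (0.120), shCCN3 replicate 1 (0.104) or shCCN3 replicate 3 (0.0876), with log2 fold changes between -0.27 and -0.21. It was kept without shCCN3 replicate 2, where GAPDH was at -0.35 (adjusted p = 0.000608).

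PGK1, the phosphoglycerate kinase, rose from 565 ± 0.990 to 649 ± 19.9 CPM (SD, n = 3; log2 fold change 0.20, edgeR adjusted p = 0.0164). That call was lost without shCTRL replicate 1 (adjusted p = 0.0544), shCTRL replicate 2 (0.0786) or shCTRL replicate 3 (0.0573), with log2 fold changes of 0.20 each, and with the replicate block (adjusted p = 0.0855). ENO1, the main enolase, was not called (log2 fold change -0.14, adjusted p = 0.162), but passed without shCCN3 replicate 2 (-0.20, adjusted p = 0.00600). The 24 genes nearest to ENO1 had a median of -0.37. PGAM1 (0.05), ENO2 (0.11) and PKM (-0.02), which encode phosphoglycerate mutase, the neuronal enolase and pyruvate kinase, were not called. Summed over the 17 enzyme genes of upper and lower glycolysis with LDHA and LDHB, the level was 20180, 20810 and 21990 CPM in shCTRL cells. In shCCN3 cells it was 18900, 21160 and 18800 CPM. The groups overlapped through shCCN3 replicate 2.

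**Figure D2:**
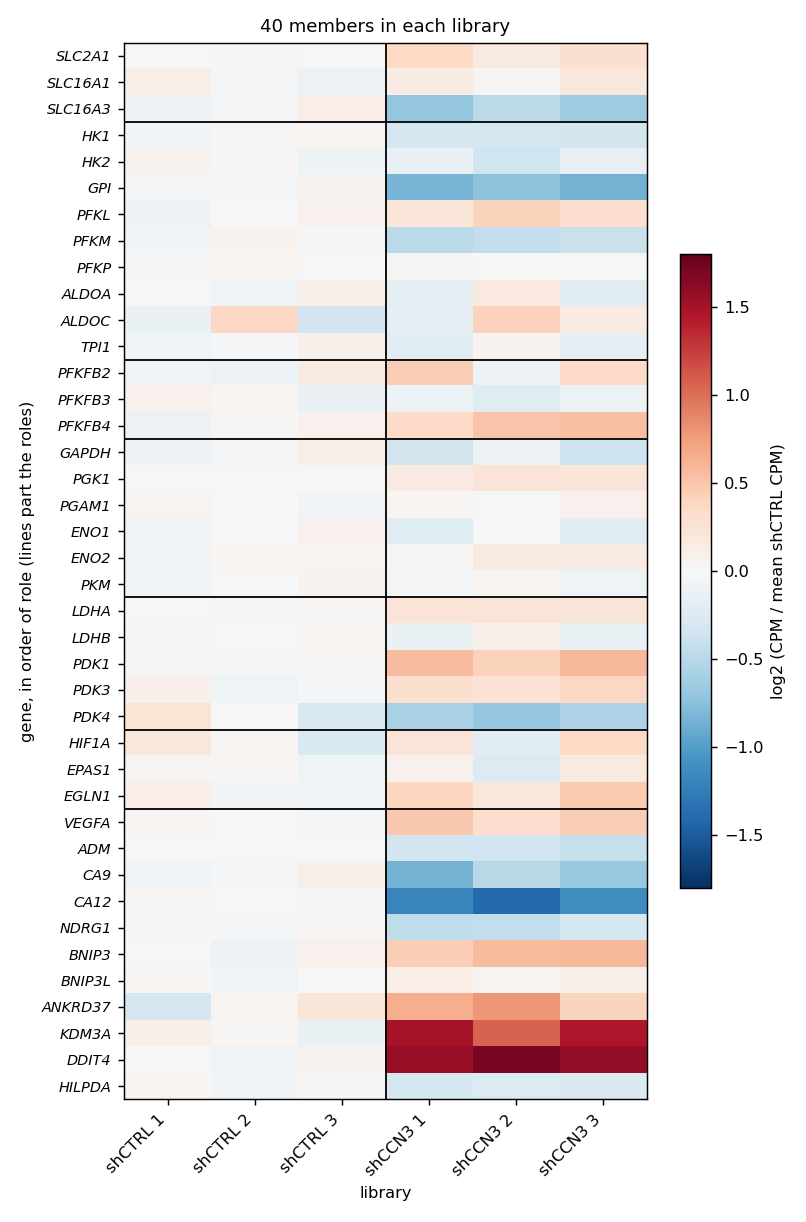
Heat map of 40 tested members (rows, in order of role) in the 6 libraries (columns), with color for the log2 ratio of a library's CPM to the mean of the shCTRL libraries. EGLN3, which had no count in shCCN3 replicate 2, is not drawn. In shCCN3 replicate 2 GAPDH, ALDOA, TPI1 and ENO1 lie nearer to or above the shCTRL level than in the other shCCN3 libraries.

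Of the 5 genes of pyruvate fate, 3 rose, none fell and 2 were not called by the test. Among all genes tested, 16.2% rose and 17.3% fell, and a difference from these shares was not tested. PDK1 and PDK3 encode kinases that switch off pyruvate dehydrogenase and so hold back the oxidation of pyruvate in mitochondria. PDK1 rose from 18.5 ± 0.468 to 26.6 ± 1.69 CPM (SD, n = 3; log2 fold change 0.52, edgeR adjusted p = 0.000630). PDK3 rose from 63.5 ± 3.75 to 78.7 ± 3.38 CPM (log2 fold change 0.31, adjusted p = 0.00619). LDHA, which encodes the lactate dehydrogenase subunit that favors lactate formation, rose from 1997 ± 29.7 to 2333 ± 17.6 CPM (log2 fold change 0.22, adjusted p = 0.00529). LDHB, the heart-type subunit, was not called (log2 fold change -0.04, adjusted p = 0.753). PDK4 was lower in every shCCN3 library but missed the threshold (log2 fold change -0.61, adjusted p = 0.0778). It was expressed at 1.00 CPM or below and lies on chromosome 7, whose tested genes had a median of -0.43.

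Within oxygen sensing, EGLN3 showed the largest fall of the set. EGLN3 encodes the prolyl hydroxylase PHD3, is itself a known HIF target and lies at chr14:33924227-33951074 (NCBI Gene ID 112399). It had 134, 131 and 91 counts in the shCTRL libraries and 5, 0 and 5 counts in the shCCN3 libraries. The highest shCCN3 library held fewer counts than the lowest shCTRL library, and the shCCN3 level lay near the floor. The edgeR log2 fold change was -5.04 (SE 0.487, adjusted p = 5.99e-05). The sum of 356 counts against 10 gave a level 33.3-fold lower after scaling to depth, with a 95% exact counting interval from 17.9-fold to 70.2-fold that leaves out the spread between samples. It passed the filter on low counts through its shCTRL libraries alone, and at least 10 counts in every sample were not reached.

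The other genes of oxygen sensing moved less. EGLN1, which encodes the main HIF hydroxylase PHD2, rose from 40.4 ± 2.97 to 51.7 ± 4.95 CPM (SD, n = 3; log2 fold change 0.36, edgeR adjusted p = 0.0120). Without shCTRL replicate 2 its value was 0.33 (adjusted p = 0.0604). The transcripts of the HIF alpha subunits were not called, with log2 fold changes of 0.15 for HIF1A (SE 0.153, adjusted p = 0.497) and 0.01 for EPAS1 (SE 0.102, adjusted p = 0.958). Without shCCN3 replicate 2, HIF1A was at 0.30 (adjusted p = 0.0538) and EPAS1 at 0.13 (adjusted p = 0.125). Without shCTRL replicate 3 or shCCN3 replicate 3, HIF1A was at 0.03 each time, and EPAS1 was at -0.03 and -0.08, none of them called. HIF1A spread widely within groups, from 204 to 285 CPM in shCTRL cells and from 215 to 317.5 CPM in shCCN3 cells. HIF activity is set mainly by protein stability, which RNA counts do not measure.

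The 11 other hypoxia-inducible genes split in both directions. By the test 5 rose and 5 fell, so 90.9% were called against 33.4% of all genes tested. In all 11, BNIP3L included, the shCTRL and shCCN3 libraries did not overlap, against 46.3% of all genes tested. DDIT4, which encodes the mTORC1 inhibitor REDD1, showed the largest rise and lies at chr10:72273924-72276036 (NCBI Gene ID 54541). Its level was 48.4, 46.1 and 50.5 CPM in shCTRL cells and 143, 158 and 144 CPM in shCCN3 cells. Every shCCN3 library was above every shCTRL library by a wide margin. Its log2 fold change was 1.62 (SE 0.067, edgeR adjusted p = 4.34e-07), or 3.07-fold higher.

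KDM3A, a histone H3 lysine demethylase that needs oxygen, lies at chr2:86437044-86492716 (NCBI Gene ID 55818). It was at 26.3, 25.0 and 22.8 CPM in shCTRL cells and at 69.0, 51.6 and 67.96 CPM in shCCN3 cells. The lowest shCCN3 library, replicate 2, was still above every shCTRL library. KDM3A changed in log2 by 1.35 (SE 0.115, edgeR adjusted p = 2.79e-05), or 2.54-fold higher. Its 24 nearest tested genes had a median of 0.72, the highest around any member, whereas the median over chromosome 2 was 0.01.

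ANKRD37, an ankyrin repeat gene induced by HIF, lies at chr4:185396841-185400723 (NCBI Gene ID 353322). It was at 1.88, 2.40 and 2.70 CPM in shCTRL cells and at 3.67, 3.98 and 3.06 CPM in shCCN3 cells. The groups did not overlap, but the gap between them was small. The log2 fold change was 0.62 (SE 0.172, edgeR adjusted p = 0.0219). The call was lost without shCTRL replicate 1 (0.48, adjusted p = 0.0752), shCTRL replicate 2 (0.65, adjusted p = 0.0597) or shCCN3 replicate 1 (0.60, adjusted p = 0.0684). Without shCCN3 replicate 2 it stayed called (adjusted p = 0.0367) at 0.54, below 1.5-fold. It overlaps UFSP2 on the opposite strand, which was at 19.5 CPM, with a log2 fold change of 0.12 (adjusted p = 0.341).

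Smaller rises were found in BNIP3 and VEGFA. BNIP3, a mitophagy receptor, rose from 130.5 ± 7.11 to 189 ± 9.62 CPM (SD, n = 3; log2 fold change 0.53, edgeR adjusted p = 0.000259), while its relative BNIP3L stood at 0.09 (adjusted p = 0.263). VEGFA, the angiogenic growth factor, rose from 294 ± 8.41 to 391 ± 25.9 CPM (log2 fold change 0.41, adjusted p = 0.00111). VEGFA lies on chromosome 6, where the median of all tested genes was 0.34 and that of its 24 nearest genes was 0.41.

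Both carbonic anhydrases of the set, cell surface enzymes of pH control, fell. CA12 (NCBI Gene ID 771) lies at chr15:63321378-63381846. It was at 147, 146 and 142 CPM in shCTRL cells and at 63.7, 55.2 and 66.9 CPM in shCCN3 cells, with no library between the groups. The log2 fold change was -1.23 (SE 0.076, edgeR adjusted p = 4.37e-06), or 2.34-fold lower. CA9 (NCBI Gene ID 768), at chr9:35673928-35681159, was at 9.88, 10.1 and 11.2 CPM in shCTRL cells and at 5.74, 7.34 and 6.46 CPM in shCCN3 cells. All shCCN3 libraries were below all shCTRL libraries. CA9 changed in log2 by -0.67 (SE 0.111, edgeR adjusted p = 0.00147), or 1.60-fold lower.

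The stress-responsive gene NDRG1 (176 ± 4.08 to 133 ± 7.05 CPM, log2 fold change -0.40, edgeR adjusted p = 0.000829) and the vasodilator peptide gene ADM (103.5 ± 0.424 to 80.4 ± 2.32 CPM, -0.36, adjusted p = 0.000846) fell as well (SD, n = 3 each). HILPDA, which encodes a lipid droplet protein, fell from 12.5 ± 0.353 to 10.3 ± 0.272 CPM (log2 fold change -0.28, adjusted p = 0.0208). HILPDA lies on chromosome 7, where the median of all tested genes was -0.43 and that of its 24 nearest genes was -0.44. Its call was lost without shCTRL replicate 1 (adjusted p = 0.0634), shCTRL replicate 2 (0.0538), shCTRL replicate 3 (0.0628), shCCN3 replicate 1 (0.0804) or shCCN3 replicate 3 (0.0515), and with the replicate block (0.0688), with log2 fold changes between -0.30 and -0.26.

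**Figure D3:**
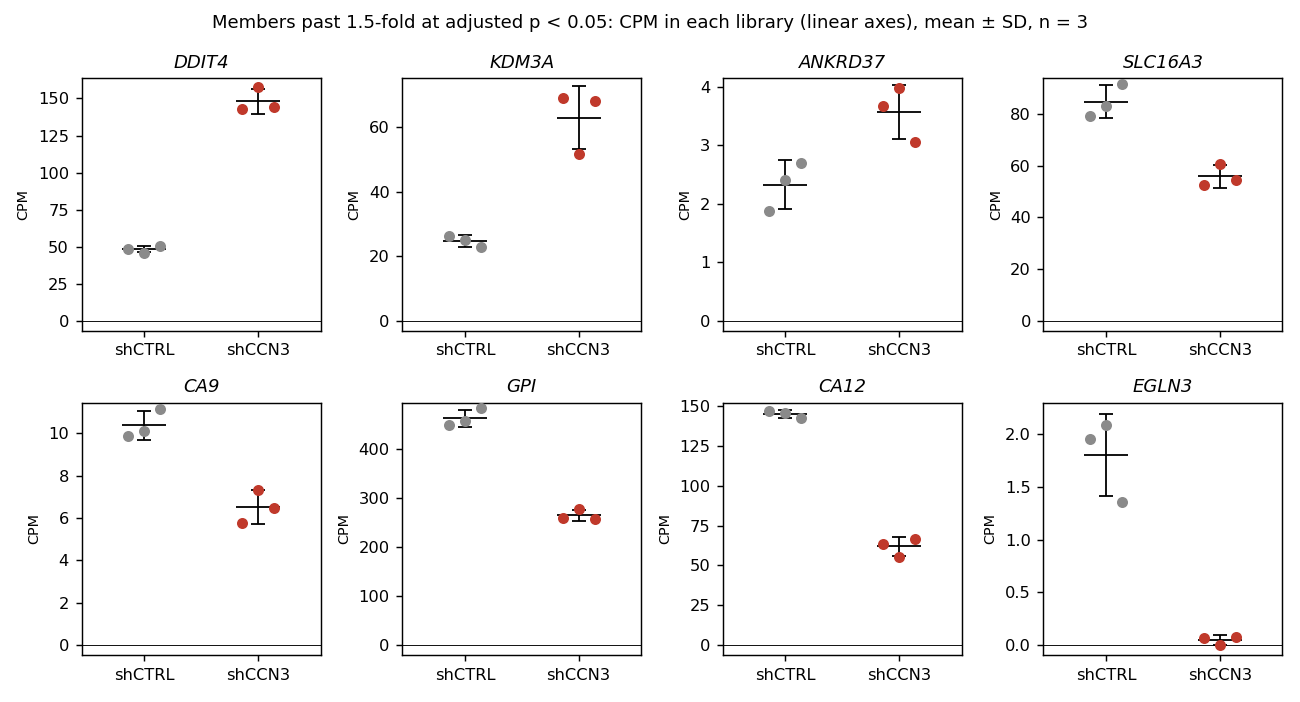
CPM (vertical, linear axes from 0) of the 8 members called at 1.5-fold or more, with 1 point per library and bars for mean ± SD (n = 3 per group, gray shCTRL, red shCCN3). DDIT4, KDM3A and ANKRD37 are higher in all shCCN3 libraries, and SLC16A3, CA9, GPI, CA12 and EGLN3 are lower in all of them.

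The balance between related genes was compared as the log2 ratio of their counts within each library, which does not depend on library scaling. Of 14 pairs, 13 could be formed without a count of 0, and in 9 of these the groups did not overlap. No such share was computed over pairs of all genes, and a ratio shifts when either of its genes changes. PFKM over PFKL had log2 ratios of -1.31, -1.28 and -1.44 in shCTRL cells and -2.05, -2.18 and -2.04 in shCCN3 cells. The difference was -0.75, and every shCCN3 library was below every shCTRL library. SLC16A3 over SLC16A1 changed by -0.73, from 0.21 ± 0.211 to -0.52 ± 0.179 (SD, n = 3). The ratio was nearly even in shCTRL replicate 1 (0.009), and counts do not correct for transcript length. Per kb of transcript SLC16A3 stayed above SLC16A1, at 41.1 against 17.6 CPM in shCTRL cells and 27.1 against 19.3 CPM in shCCN3 cells.

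PFKFB4 over PFKFB3 rose by 0.61, from -0.59 ± 0.187 to 0.02 ± 0.148 (SD, n = 3). CA12 over CA9 changed by -0.56, BNIP3L over BNIP3 by -0.45, PFKP over PFKL by -0.30, LDHB over LDHA by -0.26, ENO2 over ENO1 by 0.25 and PDK3 over PDK1 by -0.21. Each of the 9 pairs gave p = 0.1 in a two-sided exact permutation test, the smallest that 3 libraries against 3 allow, and an adjusted p of 0.144 over the 13 pairs. The groups overlapped for HK2 over HK1, ALDOC over ALDOA, SLC2A3 over SLC2A1 and EPAS1 over HIF1A. For EGLN3 over EGLN1, with 1 count added to each gene, the log2 ratio was -4.50 ± 0.302 in shCTRL cells and -9.93 ± 1.21 in shCCN3 cells.

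**Figure D4:**
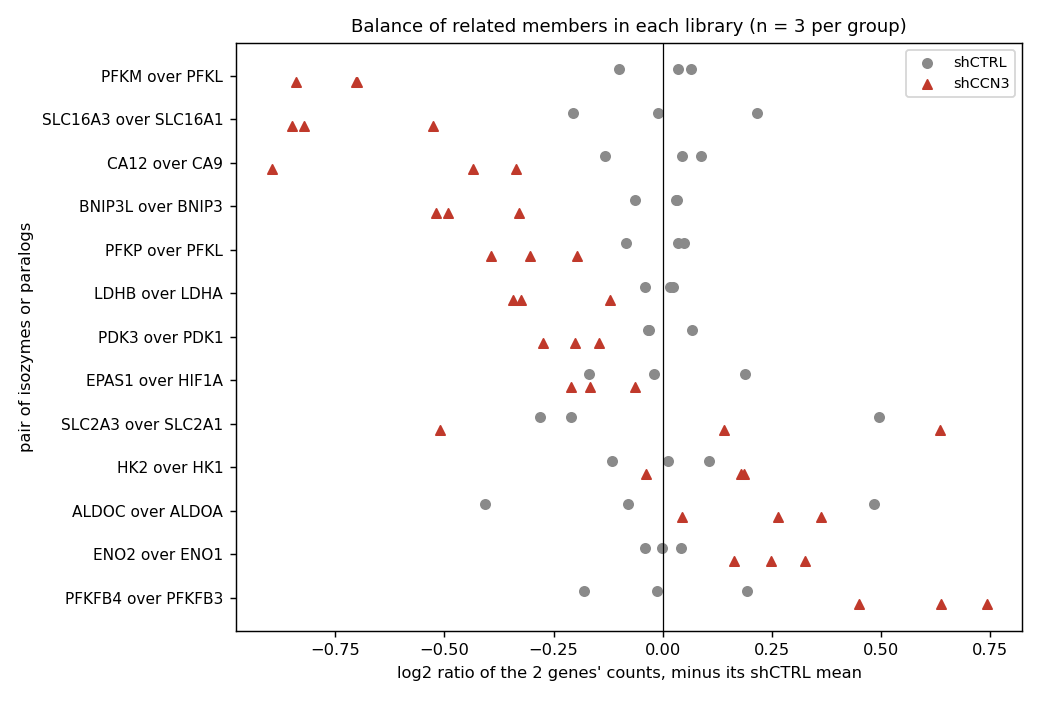
Log2 ratio of the counts of 2 related genes in each library, minus the mean of the shCTRL libraries (horizontal), for 13 pairs (vertical). Gray circles are shCTRL libraries and red triangles shCCN3 libraries. PFKM over PFKL lies at a mean of -0.75 and SLC16A3 over SLC16A1 at -0.73 in shCCN3 cells, and PFKFB4 over PFKFB3 lies at 0.61.

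Other genes of the same pathways were followed as 6 lists of 95 genes, of which 85 were tested, with 28 higher and 12 lower. Called were thus 47.1%, against 33.4% of all genes tested. Of 30 tested hypoxia-inducible genes outside the 42, 17 rose, 5 fell and 8 were not called (73.3% called), with a median log2 fold change of 0.22. TMEM45A (1.24), AK4 (1.13), which encodes a mitochondrial adenylate kinase, and BHLHE40 (1.00), which encodes a circadian transcriptional repressor, had the largest rises (edgeR adjusted p = 4.58e-06, 2.88e-06 and 1.24e-05). ANGPTL4 (-1.32) and STC1 (-1.21), both secreted proteins, had the largest falls (adjusted p = 0.000785 and 3.89e-05). BHLHE40 was at 79.9, 83.5 and 74.5 CPM in shCTRL cells and at 170, 146 and 160 CPM in shCCN3 cells. STC1 was at 91.3, 92.3 and 84.3 CPM in shCTRL cells and at 40.02, 31.7 and 43.8 CPM in shCCN3 cells. Neither gene's groups overlapped.

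Of 12 tested HIF partners and members of its degradation machinery, 2 rose and none fell, or 16.7% called against 33.4% of all genes tested. CITED2, which competes with HIF for the coactivators CBP and p300, rose by a log2 fold change of 0.93 (edgeR adjusted p = 9.08e-06) and lies on chromosome 6, whose median was 0.34. ARNT (0.08, adjusted p = 0.554), the partner of the HIF alpha subunits, and VHL (-0.03, adjusted p = 0.737), which recognizes hydroxylated HIF, were not called.

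The routes that branch from glycolysis held single large changes. Of 7 tested genes of the pentose phosphate pathway 2 rose and 1 fell, and RPIA, the ribose phosphate isomerase, rose by 0.99 (edgeR adjusted p = 3.73e-05). Of 8 tested genes of glycogen metabolism 4 rose and 1 fell. The gene that fell was PYGB, the brain-type glycogen phosphorylase, from 293 ± 14.2 to 152 ± 3.19 CPM (SD, n = 3; -0.95, adjusted p = 4.28e-06). Of 17 tested genes of glucose handling 2 rose and 4 fell, among them the glucose transporter gene SLC2A10 (-1.05, adjusted p = 7.75e-05) and GALM, the aldose epimerase (-0.92, adjusted p = 0.00608). Of 11 genes of pyruvate entry and pyruvate dehydrogenase 1 rose and 1 fell. The shares called were 42.9% for the pentose phosphate pathway, 62.5% for glycogen metabolism, 35.3% for glucose handling and 18.2% for pyruvate entry. Over all genes tested the share was 33.4%.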

How the data were processed

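Total RNA of Hs578T shCTRL and shCCN3 cells (3 samples each, RNA integrity number of at least 7) was made into stranded poly(A) libraries. The authors deposited raw read counts for 46427 genes by NCBI Gene ID, without normalization. The submitters' processing notes name bcl2fastq 2.20.0, Trimmomatic, HISAT2 2.1.0, StringTie 2.1.3d, DESeq2 and GRCh38, with no role or order. Whether counting used the strand is not given in the sources used here, so values of overlapping genes are uncertain. Reads on annotated pseudogenes of the tested members came to at most 1.52% of a member's counts. For SLC2A3 they came to 50.0%.

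Groups followed the sample labels. CPM, TMM factors and the quasi-likelihood test came from edgeR 4.0.16 in R 4.3.3, with edgeR's filter on low counts, which left 17419 genes, and Benjamini-Hochberg adjustment over all of them. Calls used an adjusted p under 0.05, alone or with at least 1.5-fold. Standard errors (SE) were the size of the log2 fold change over the square root of the F statistic of the quasi-likelihood test. All 42 members were described. Those past 1.5-fold were given by library, and for other lists up to 5 genes per direction were named by largest change among called genes of at least 1 CPM without overlap. ARNT, ARNT2 and VHL were named after their values were seen. The members, lists and rules were chosen with earlier results of these data known. Positions came from RefSeq (GRCh38.p14), to which 44698 Gene IDs, those of all members included, were matched. Promoters of 35 members were in the table, 23 of them with a single start. Transcript lengths were the median of coding transcripts in GENCODE release 29. Intervals cover counting error only, and p-values the spread between these samples. Alternatives were DESeq2 size factors, upper-quartile scaling, no filter, a minimum of 10 counts per library, DESeq2 1.42.0, limma-voom (limma 3.58.1), a replicate block and each library left out. On simulated counts for this comparison (17419 genes, 200 changed), edgeR recovered 187 changed genes with 20 false calls. Recovery with as many changed genes as the 5825 called in the data was not tested. Recovery of changes as small as those of most called members was not tested either.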

Additional observations from a re-analysis of the deposited data

How the results depend on the processing

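Members called stayed at 24 with DESeq2's size factors in edgeR, upper-quartile scaling, no filter on low counts, DESeq2 and limma-voom, and came to 23 with at least 10 counts in every sample, where EGLN3 was not tested. Deviations from the group mean had correlations of 0.149, -0.07 and -0.26 between same-numbered samples. Such deviations from means of 3 libraries cannot show whether the numbers mark a pairing, and the sample labels name none. With the replicate block 22 members and 4887 genes were called, against 5825 genes without it. With 1 library left out, 19 to 27 members and 4181 to 7229 genes were called. The lowest numbers came without shCTRL replicate 2 and the highest without shCCN3 replicate 2. Members past 1.5-fold numbered 6 or 7 with 1 library left out and 7 or 8 in the other settings, against 8 in the reported fit. Over 532 combinations of a member and an alternative, the sign turned in 11, from 5 members that were called neither in the reported fit nor in those 11. With 1 library left out their log2 fold changes ran from -0.0081 to 0.030 for PFKP, -0.18 to 0.012 for ALDOA, -0.057 to 0.0086 for PKM, -0.11 to 0.0036 for LDHB and -0.075 to 0.13 for EPAS1, and EPAS1 was at -0.00092 with the replicate block. In 19 combinations the call was lost in 6 members (SLC2A1, GAPDH, PGK1, EGLN1, ANKRD37 and HILPDA), and in 3 it was gained (ALDOA, TPI1 and ENO1). The cause was not tested. Depth limits EGLN3 in shCCN3 cells and SLC2A3 in every library, where 3 counts equal at least 0.0439 CPM before TMM factors.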
